A study of Homo sapiens with 15 samples.

Results

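In MDA-MB-231 cells, 6693 chromatin regions carried oxidised lysine 4 of histone H3 (H3K4ox) together with the histone variant H2A.Z, and had no peak of the ATPase RUVBL2. They were found from deposited peak lists of chromatin immunoprecipitation with sequencing (ChIP-seq), in which a peak is a stretch of genome where the antibody recovered more DNA than the caller's threshold. Peaks of the 2 H3K4ox libraries that shared at least 1 bp were merged, and the 162645 of 317583 merged regions that held peaks of both libraries were kept as shared regions. Of these, the regions that met at least 1 H2A.Z peak and no RUVBL2 peak made up 4.12% (95% Wilson interval 4.02 to 4.21). A further 10100 shared regions held both H2A.Z and RUVBL2, 52441 held RUVBL2 without H2A.Z, and 93411 held neither.

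MDA-MB-231 is an established human breast cancer cell line that lacks hormone receptors and has a mesenchymal-like form. The ChIP-seq libraries came from cells in serum-containing medium, and their labels name no knockdown or drug. Peak lists came with 4 of 15 samples: 2 libraries of H3K4ox, made with an antibody of the laboratory's own, and 1 library each of H2A.Z and RUVBL2, made with commercial antibodies. The other 11 samples, which were 1 input, 8 RNA-seq libraries of control and LOXL2 or RUVBL2 knockdown cells and 2 ATAC-seq libraries, were not analysed here. The cell line's marker genes could not be checked, since no annotation of hg19, the build of the peaks, was used.

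H3K4ox is made by LOXL2, a lysyl oxidase that removes the amino group of lysine 4 on the histone H3 tail, and it has been linked to compact chromatin. H2A.Z replaces H2A in a subset of nucleosomes, typically those that flank active promoters and lie at enhancers, and it is also found in silent chromatin. RUVBL2 forms a ring with RUVBL1 in the SRCAP, TIP60 and INO80 complexes, of which the first 2 put H2A.Z into nucleosomes. The regions described here therefore hold the variant without a peak of a subunit of its loading machinery.

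The H3K4ox lists held 252459 and 246967 peaks, the H2A.Z list 38584 and the RUVBL2 list 109607, each with a lowest score of 50. Without read counts, the depth of the libraries is unknown. Absence of a RUVBL2 peak means that none passed that caller threshold in 1 library, and RUVBL2 below it could not be seen. The headers of the H2A.Z and RUVBL2 lists name no input, so these peaks may have been called without one. Whether regions that stand out in input chromatin are among the overlaps of these 2 lists was not tested. Neither H2A.Z nor RUVBL2 was replicated, and nothing states that the 2 H3K4ox libraries came from separate cultures. No difference between kinds of region was tested: over 2 libraries a paired exact permutation test cannot give a two-sided p below 0.5, and regions of 1 library are not replicates. Mean ± SD below is over the 2 H3K4ox libraries, and Wilson intervals cover counting error only and treat regions as independent.

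Regions with H2A.Z and no RUVBL2 were short and of middling H3K4ox score. Their median width was 1031 bp, against 1995.5 bp for regions with both proteins, 1551 bp for those with RUVBL2 alone and 925 bp for those with neither. The middle 50% of them lay between 834 and 1385 bp. A score is the authors' own value for a peak, and it was turned into a percentile within its list, so that 100 is the best peak. The best H3K4ox peak of each H2A.Z region without RUVBL2 had a median percentile of 58.5 in replicate 1 and 57.2 in replicate 2, a mean of 57.8 ± 0.864 (SD, n = 2). Regions with both proteins had 87.7 ± 0.528 (SD, n = 2), regions with RUVBL2 alone 78.9 ± 0.551 (SD, n = 2) and regions with neither 51.8 ± 0.483 (SD, n = 2). Each of these gaps was larger than the spread between the 2 libraries.

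**Figure D1:**
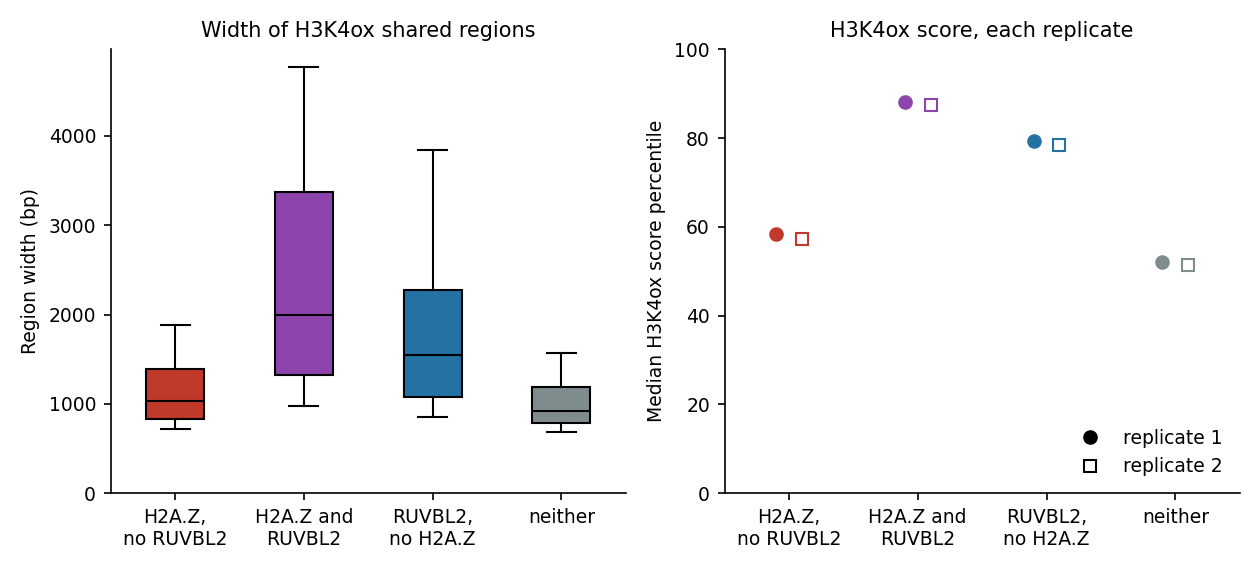
Width in bp of H3K4ox shared regions (left; line, median; box, middle 50%; whiskers, percentiles 10 and 90) and median H3K4ox score percentile in each replicate (right), for regions with H2A.Z and no RUVBL2, with both, with RUVBL2 alone and with neither. Regions with H2A.Z and no RUVBL2 have medians of 1031 bp and of 58.5 and 57.2 percentile, nearer to regions with neither than to those with both.

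Very strong H3K4ox was rare among them. In 224 of the 6693 (3.35%) the best peak was in the upper 10% of both H3K4ox lists, as it was in 3.35% of regions with neither protein. The share was 36.5% in regions with both proteins and 20.5% in those with RUVBL2 alone. Most H2A.Z regions without RUVBL2, 93.5%, held a single peak of each H3K4ox library. So did 96.6% of regions with neither protein, 83.2% of those with RUVBL2 alone and 72.6% of those with both. H3K4ox scores had a Spearman correlation of 0.58 between the libraries across H2A.Z regions without RUVBL2, against 0.83 across the regions with both proteins. These correlations describe regions chosen from the same 2 lists, and a set with fewer strong peaks spans a narrower range of scores.

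H2A.Z itself was much alike with and without RUVBL2. The best H2A.Z peak had a median score of 67.2 in regions without RUVBL2 and 68.4 in those with it, at percentiles of 50.9 and 52.8 of the H2A.Z list. Its median width was 796 bp without RUVBL2 and 846 bp with it. Among shared regions with H2A.Z, sorted by H2A.Z score into 10 groups, the share without RUVBL2 was 39.9% in the lowest group and 42.6% in the highest, and its lowest value was 36.6% in group 7. Across the regions without RUVBL2, H2A.Z and H3K4ox scores had Spearman correlations of 0.03 in each H3K4ox replicate.

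H2A.Z and the absence of RUVBL2 were then compared directly. Of the 16793 shared regions with H2A.Z, which were 10.3% of all shared regions, 39.9% (95% Wilson interval 39.1 to 40.6) had no RUVBL2 peak. Among shared regions without H2A.Z 64.0% (63.8 to 64.3) had none, and among all shared regions 61.5%. The rule uses both proteins, so this is a description of how the regions divide. RUVBL2 was thus less often missing where H2A.Z was present.

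Region width moved with this result, and its part was not tested. Shared regions were sorted by width into 10 groups of about equal size. In the narrowest group, of 342 to 721 bp, 81.5% of regions with H2A.Z lacked RUVBL2, against 89.1% of those without H2A.Z. In the group of 966 to 1080 bp the shares were 61.2% with H2A.Z and 73.8% without. In the widest, of 2469 bp or more, they were 5.63% with H2A.Z and 9.50% without. The share without RUVBL2 was lower where H2A.Z was present in 10 of 10 width groups. Regions with H2A.Z and no RUVBL2 made up 4.33% of the narrowest group, 4.97% of the group of 966 to 1080 bp and 1.40% of the widest.

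**Figure D2:**
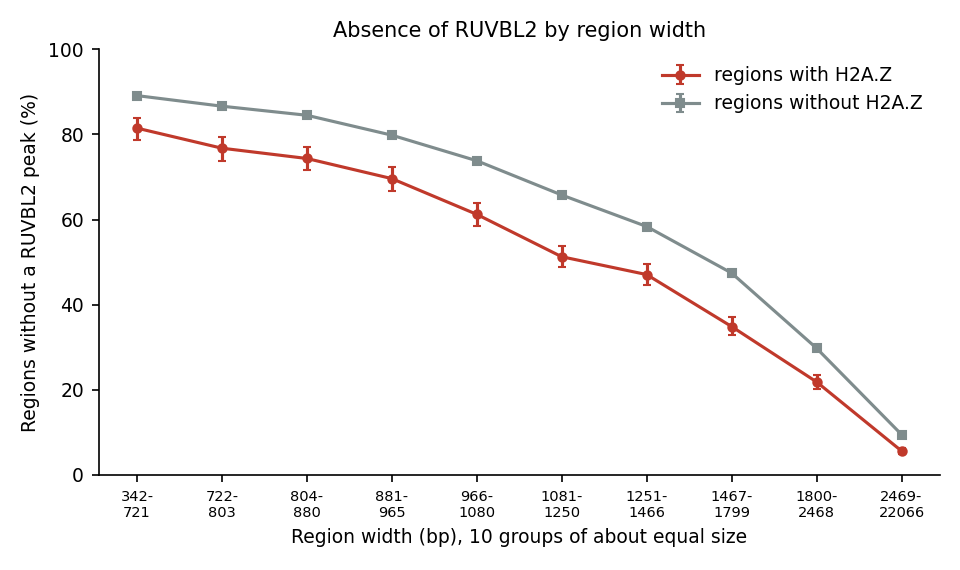
Share of H3K4ox shared regions without a RUVBL2 peak (%) in 10 groups of region width (bp), for regions with H2A.Z and regions without H2A.Z; bars are 95% Wilson intervals. The share falls with width in both, from 81.5% to 5.63% with H2A.Z and from 89.1% to 9.50% without, and is lower with H2A.Z in each group.

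H3K4ox score gave the same picture in each replicate. In the lowest of 10 score groups, 74.3% ± 1.34 of regions with H2A.Z lacked RUVBL2, against 83.7% ± 0.573 of those without H2A.Z (SD, n = 2). In the highest group the shares were 5.84% ± 0.337 with H2A.Z and 22.5% ± 0.285 without (SD, n = 2). They were lower with H2A.Z in 10 of 10 groups of replicate 1 and in 10 of 10 of replicate 2. Regions with H2A.Z and no RUVBL2 were 4.66% ± 0.230 of the lowest score group, 4.72% ± 0.161 of group 7 and 1.31% ± 0.0696 of the highest (SD, n = 2). The share of regions holding any H2A.Z went the other way, with 6.26% ± 0.196 in the lowest group and 22.4% ± 0.103 in the highest (SD, n = 2).

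Inside the regions, H2A.Z usually sat near the middle of the H3K4ox peak. In 6597 of 6693 regions (98.6%) there was 1 H2A.Z peak, in 94 there were 2 and in 2 there were 3. The H2A.Z centre lay inside the region in 92.5%, and 41.4% of regions held the whole H2A.Z peak. In 11.3% the H2A.Z peak covered the whole region. The 6693 regions met 6623 different H2A.Z peaks, so a few neighbours shared a peak.

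The distance between centres was measured for each H3K4ox replicate. The median from the H2A.Z centre to the H3K4ox peak centre was 137 bp in replicate 1 and 136 bp in replicate 2. The centres of the 2 H3K4ox replicates themselves lay a median of 68 bp apart in these regions. Regions with both proteins had medians of 357 and 359 bp from H2A.Z to H3K4ox, and 145 bp between replicates. H2A.Z was centred within 200 bp of the middle of the region in 61.9% of regions without RUVBL2 (95% Wilson interval 60.7 to 63.0) and in 33.6% (32.6 to 34.5) of those with it.

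Among regions of like width this order was mostly turned round: the median offset was larger without RUVBL2 in 7 of 10 width groups and smaller in 3. In the narrowest width group the offset was 72.3 ± 1.77 bp without RUVBL2 and 64.0 ± 2.83 bp with it (SD, n = 2). In the group of 966 to 1080 bp it was 119.5 ± 3.54 bp without RUVBL2 and 96.5 ± 4.95 bp with it (SD, n = 2). In the group of 1081 to 1250 bp it was 147.0 ± 2.83 bp without RUVBL2 and 143.0 ± 5.66 bp with it (SD, n = 2), a difference within the spread between libraries. In the group of 1467 to 1799 bp it was larger without RUVBL2, at 331.0 ± 5.66 bp against 280.5 ± 3.54 bp (SD, n = 2). In the widest it was smaller without RUVBL2, at 807.5 ± 9.19 bp against 848.0 ± 11.3 bp (SD, n = 2).

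Although they held no RUVBL2 peak, these regions had RUVBL2 nearby more often than shared regions with neither protein. The nearest RUVBL2 peak was a median of 4638 bp from the edge of an H2A.Z region and 7361 bp from the edge of a region with neither. Within 1 kb, 17.4% of the H2A.Z regions (95% Wilson interval 16.5 to 18.4) had a RUVBL2 peak, against 11.9% (11.7 to 12.1) of regions with neither. Within 5 kb the shares were 51.9% (50.7 to 53.1) and 40.2% (39.9 to 40.5), and 41.0% over both kinds together. Within 100 kb they were 99.4% and 98.1%. The nearest RUVBL2 peak was of similar rank for both kinds of region, with a median percentile of 45.0 in its list beside H2A.Z regions and 42.2 beside regions with neither.

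**Figure D3:**
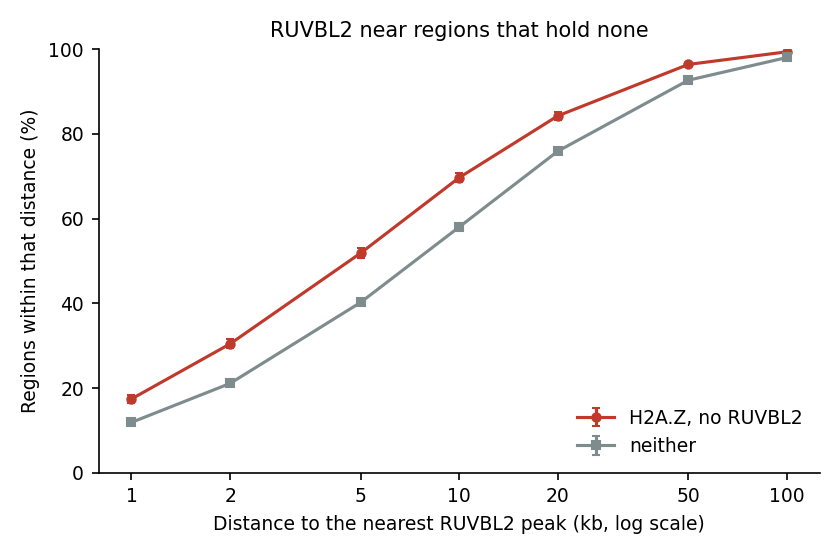
Share of H3K4ox shared regions (%) with a RUVBL2 peak within 1 to 100 kb (log axis), for regions with H2A.Z and no RUVBL2 and regions with neither; bars are 95% Wilson intervals, mostly smaller than the symbols. At 5 kb the shares are 51.9% and 40.2%.

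The difference in distance was also seen at like width. In the group of 342 to 721 bp, 39.3% of H2A.Z regions without RUVBL2 had a RUVBL2 peak within 5 kb, against 32.4% of regions with neither. In the group of 2469 bp or more the shares were 74.9% for H2A.Z regions and 53.9% for regions with neither. The H2A.Z regions had the higher share in 10 of 10 width groups. By chromosome, their median distance was shorter on 20 of the 23 chromosomes 1 to 22 and X. The exceptions were chromosome 4, with 8223 bp for H2A.Z regions and 7959 bp for those with neither, chromosome 13, with 19623 and 19522.5 bp, and chromosome 21, with 12413 and 11138.5 bp.

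RUVBL2 was nearest to the regions with the strongest H2A.Z. Among H2A.Z regions without RUVBL2, the median distance to RUVBL2 was 5446 bp in the lowest of the 10 H2A.Z score groups and 3059 bp in the highest. The 8 groups between them had medians between 4353 and 5563 bp, in no steady order. In the highest group 62.6% had RUVBL2 within 5 kb and in the lowest 47.8%. Median region width was 1118.5 bp in the highest group and 1009 bp in the lowest, and the part of width in this result was not tested.

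Peak coverage was followed outward from the centres of the regions. H2A.Z peaks covered 82.8% of the centres of H2A.Z regions without RUVBL2, 10.0% of positions 1 kb away and 3.57% at 20 kb. At 20 kb around regions with neither protein, H2A.Z covered 1.81%. RUVBL2 peaks covered 9.04% of positions 3 kb from the centre of H2A.Z regions and 7.83% at 20 kb, against 5.78% and 5.97% around regions with neither. H3K4ox covered 97.8% ± 0.507 of the centres, 16.8% ± 0.692 of positions at 1 kb and 22.2% ± 0.946 at 3 kb (SD, n = 2). Around regions with neither, H3K4ox covered 16.6% ± 0.685 at 3 kb (SD, n = 2).

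**Figure D4:**
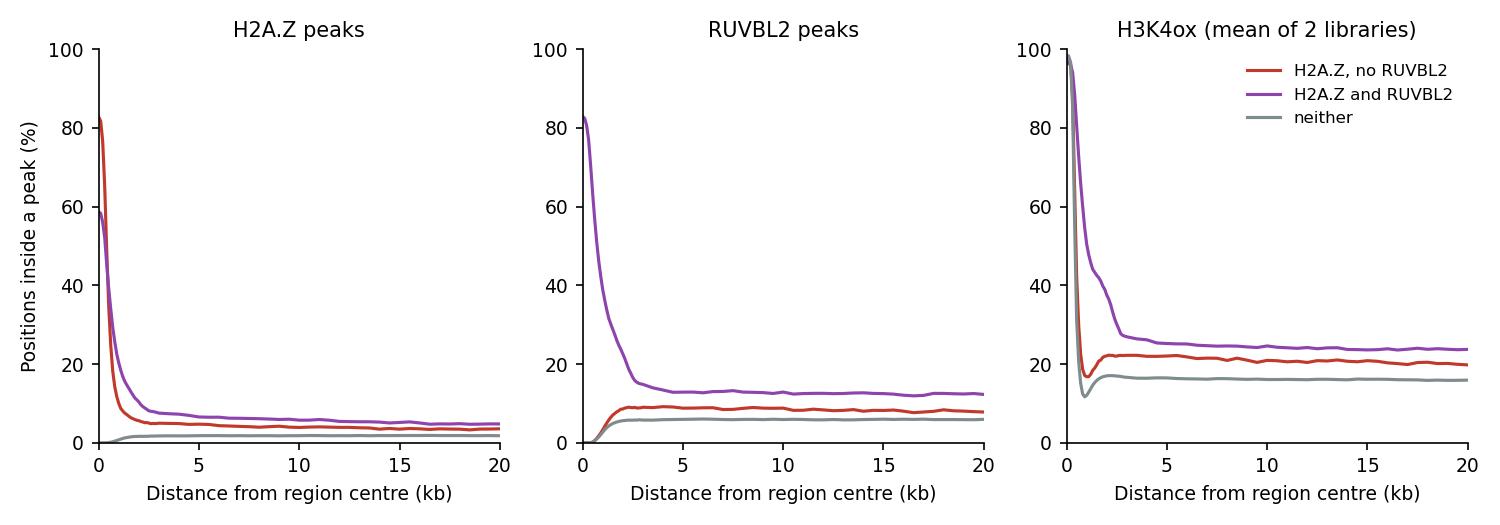
Share of positions (%) covered by H2A.Z, RUVBL2 and H3K4ox peaks against distance from the region centre (kb, mean of both sides), for regions with H2A.Z and no RUVBL2, with both and with neither. RUVBL2 coverage around H2A.Z regions without RUVBL2 levels off at 9.04% by 3 kb, above the 5.78% around regions with neither.

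Their surroundings held more peaks of each antibody than those of regions with neither protein. Compared with the surroundings of regions with both, they held fewer H2A.Z peaks beside the region's own and about as many H3K4ox peaks. Within 50 kb on either side, H2A.Z regions without RUVBL2 had a mean of 7.76 RUVBL2 peaks, against 11.03 around regions with both, 8.396 around regions with RUVBL2 alone and 5.77 around regions with neither. The values for regions that hold RUVBL2 include their own RUVBL2 peaks, so only 7.76 and 5.77 compare like with like. Whether surroundings of regions with RUVBL2 alone held more RUVBL2 peaks beside their own was not tested. H3K4ox peaks, a region's own included, numbered 18.99 ± 0.191 around H2A.Z regions without RUVBL2, 19.33 ± 0.00126 around regions with both, 15.999 ± 0.132 around regions with RUVBL2 alone and 16.3 ± 0.205 around regions with neither (SD, n = 2). The median was 18 in each replicate for regions with H2A.Z, with or without RUVBL2. Beside its own, a region with H2A.Z and no RUVBL2 had 3.47 further H2A.Z peaks, a region with both had 4.19, a region with RUVBL2 alone had 2.35 in all and a region with neither had 1.92 in all. The part of this higher peak density in the shorter distance to RUVBL2 was not tested.

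No shift of H2A.Z toward the nearby RUVBL2 was seen. For each region the H2A.Z centre was placed on the side of the nearest RUVBL2 peak or on the other side of the H3K4ox centre. It lay on the RUVBL2 side in 50.6% of regions by the replicate 1 centre (95% Wilson interval 49.4 to 51.8) and in 49.7% by that of replicate 2 (48.5 to 50.9). Where RUVBL2 was less than 1 kb away it lay on that side in 581 of 1162 regions (95% Wilson interval 47.1% to 52.9%) and in 48.2% (45.4 to 51.1).

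Successive shared regions were then compared by kind, where neighbours may share 1 H2A.Z peak. Of the shared regions next to one with H2A.Z and no RUVBL2, 8.32% were of that kind too, against 4.12% of all shared regions. Regions with both proteins made up 9.74% of these neighbours, against 6.21% of all shared regions, and 52.9% held neither protein. Most H2A.Z regions without RUVBL2 stood alone: 5630 had no neighbour of their kind on either side, 459 runs held 2, 43 held 3 and 4 held 4. The median spacing between successive regions of this kind was 136.1 kb.

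Autosomes held fairly even shares of these regions. The share of shared regions that had H2A.Z and no RUVBL2 ranged from 2.94% on chromosome 16 to 5.10% on chromosome 4 over the autosomes, with a median of 4.07%. Chromosome 19 was densest, with 470 of them, or 7.96 per Mb, and 4.73% of its shared regions. Chromosome 17 followed with 5.61 per Mb, and chromosome 13 was the sparsest autosome with 0.739 per Mb. The richest window of 1 Mb began at 49 Mb on chromosome 19, with 24 such regions among 287 shared ones. Next came those at 27 Mb on chromosome 1, with 21 among 220, and at 41 Mb on chromosome 17, with 21 among 229.

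Chromosome X held few. In all, 17 of its 2702 shared regions (0.63%, 95% Wilson interval 0.39 to 1.01) had H2A.Z and no RUVBL2. H2A.Z was present in 8.07% of its shared regions, against 10.3% in the genome, but 76.4% held RUVBL2. Of its 218 shared regions with H2A.Z, 7.80% (4.93 to 12.1) lacked RUVBL2, and of those without H2A.Z 24.96% did. The share on X varied with the processing but stayed below that on the autosomes. It was 1.90%, or 34 regions, against 3.85% on the autosomes when each peak was cut to the 200 bp at its centre. With the upper 50% of each list by score it was 0.148%, or 3 regions, against 2.85%. Without H3K4ox replicate 1 it was 1.11%, or 46 regions, against 4.07%, and without replicate 2 it was 0.947%, or 40 regions, against 4.13%.

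Autosomes also differed in how often H2A.Z came without RUVBL2. The share of H2A.Z regions that lacked RUVBL2 was 68.9% on chromosome 22 (95% Wilson interval 58.7 to 77.5) and 63.2% on chromosome 15 (57.7 to 68.3). It was 24.98% on chromosome 6 (22.6 to 27.5) and 31.5% on chromosome 19 (29.2 to 33.9). Regions without H2A.Z were more often free of RUVBL2 on 23 of 23 chromosomes, with 82.8% on chromosome 22, 80.7% on chromosome 15, 49.1% on chromosome 6 and 63.2% on chromosome 19. The gap was largest on chromosome 19, at 31.5% with H2A.Z against 63.2% without. RUVBL2 and H2A.Z came from 1 library each, so a spread for these shares could not be had. The copy number of each chromosome in this aneuploid line was not analysed here. The lists also gave 375 shared regions on chromosome Y, and whether reads from elsewhere were placed there was not tested.

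**Figure D5:**
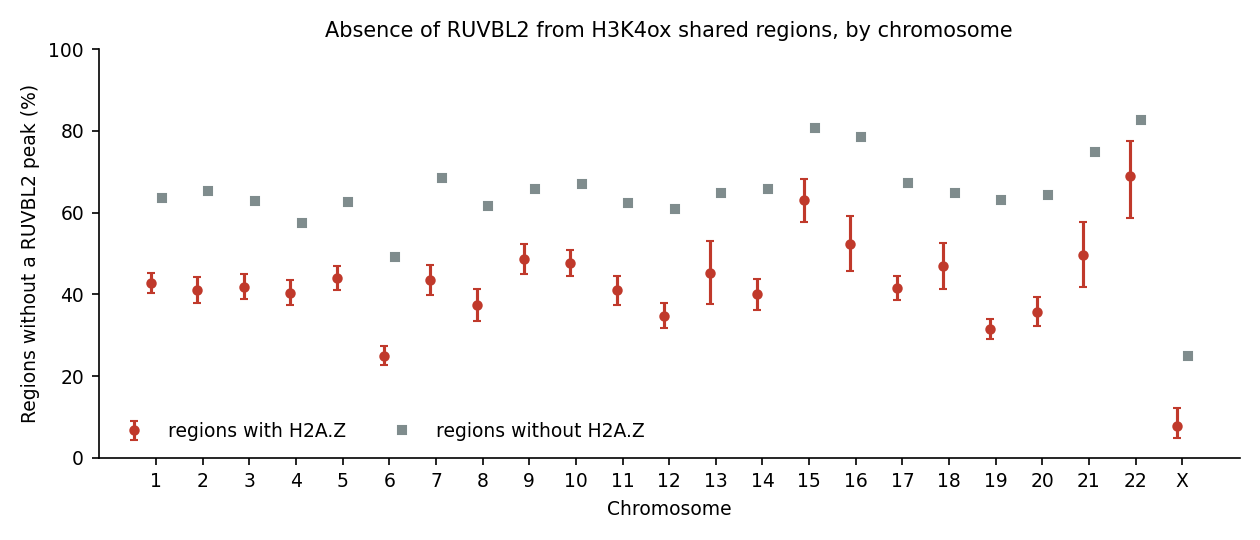
Share of H3K4ox shared regions without a RUVBL2 peak (%) on chromosomes 1 to 22 and X, for regions with H2A.Z (bars, 95% Wilson intervals) and regions without H2A.Z (no bars); chromosome Y, with 2 regions of this kind, is left out. The share with H2A.Z is below that without on each chromosome and is lowest on X, at 7.80%.

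Sites are given by position in hg19, counted from 1. The highest H2A.Z score was 1277, at chromosome 12, 123942805 to 123944673. Its H3K4ox was modest, with scores of 72.0 and 67.7 in the 2 replicates, and the H2A.Z peak reached over its left edge, from 123941235 to 123944009. A RUVBL2 peak lay 158 bp away. The next, at chromosome 1, 245030391 to 245032479, had an H2A.Z score of 1069 and H3K4ox scores of 320.6 and 242.8, with the nearest RUVBL2 9577 bp off. The third, at chromosome 19, 12662708 to 12664225, had an H2A.Z score of 936.7 and RUVBL2 at 308 bp. Its H2A.Z peak, from 12662358 to 12665390, ran more than 308 bp past both edges, so it met that RUVBL2 peak. Of the 10 regions with the highest H2A.Z scores, 5 had RUVBL2 within 1 kb and 8 within 5 kb, beside 17.4% and 51.9% of all 6693. These 10 rested on 9 H2A.Z peaks, since neighbours at chromosome 10, 126480870 to 126481840 and 126482052 to 126483491, shared a peak of score 881.0. Both count among the 8, with RUVBL2 at 1098 and 2280 bp. These distances place RUVBL2 inside the shared H2A.Z peak, which ran from 126479065 to 126482152. Among all 6693 regions, the H2A.Z peak met RUVBL2 outside the region in 1.75%. The farthest of the 10 from RUVBL2, at 62470 bp, was chromosome 13, 50069020 to 50070080, where H2A.Z scored 767.1 and its centre lay 6 bp from the middle of the region.

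The strongest H3K4ox in regions of this kind came with H2A.Z of varied rank, at percentiles of 15.0 to 99.1 over the 10 regions with the best mean H3K4ox percentile. At chromosome 19, 16178529 to 16181226, H3K4ox scored 1818 and 1636, H2A.Z scored 306.7 and RUVBL2 lay 7483 bp away. At chromosome 20, 36941344 to 36945048, H3K4ox scored 2025 and 1322 and H2A.Z 56.8, a percentile of 27.1. Chromosome 21, 43225541 to 43226968, had H3K4ox scores of 1340 and 1325 and an H2A.Z score of 57.8. Chromosome 19 held 5 of these 10 regions, and 5 of the 10 had RUVBL2 within 5 kb.

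Many of the regions strong in both marks were on chromosome 19, where H3K4ox scores of this kind of region were also high, with a median percentile of 71.3. In 33 of the 6693, H2A.Z and both H3K4ox lists ranked in the upper 10%, and 14 of these lay on chromosome 19, which held 7.02% of the 6693. The best by the lower of the H2A.Z and H3K4ox percentiles was chromosome 19, 59050181 to 59055241, a region of 5061 bp with H3K4ox scores of 1565 and 1418 and an H2A.Z score of 413.5. Its H2A.Z peak lay at the right edge, from 59054231 to 59055611. At chromosome 19, 7197259 to 7198302, a region of 1044 bp, H2A.Z from 7197100 to 7198462 had its centre 0 bp from that of the region, with scores of 408.4 for H2A.Z and of 483.9 and 447.3 for H3K4ox.

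The border of the rule was soft. Among the 6693 regions, 102 had a RUVBL2 peak within 100 bp, and 73 regions with H2A.Z were left out for a RUVBL2 overlap of at most 100 bp. The first had a median width of 1305 bp and an H3K4ox percentile of 70.8 ± 0.453 (SD, n = 2), and the second 1134 bp and 71.0 ± 1.17 (SD, n = 2). At chromosome 5, 68387222 to 68388340, RUVBL2 lay 2 bp away, and at chromosome 12, 112554957 to 112555885, it overlapped by 1 bp. On the H2A.Z side, 146 regions held at most 100 bp of an H2A.Z peak, and 229 regions with neither protein had H2A.Z within 100 bp. In 117 of the 6693 (1.75%), the H2A.Z peak itself met a RUVBL2 peak outside the region.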

How the data were processed

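Per the labels' protocols, sonicated chromatin of MDA-MB-231 cells was enriched for H3K4ox in 2 libraries and for H2A.Z or RUVBL2 in 1 library each. Samples were grouped by their titles. Per the file headers and peak names, the authors called peaks with MACS in each library. No version or setting of MACS is stated in what was used here. Per the submitters' processing notes, the build was hg19 and the tools included Bowtie and TopHat. Only the headers of the H3K4ox lists name an input, and the term multilocus stands unexplained in all 4 headers. Each peak's score, as deposited by the authors, served as a rank within its list. Depth is unknown.

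Regions were merged, overlapped and measured with Python 3.11.15, numpy 2.4.6 and pandas 2.3.3, and plots were drawn with matplotlib 3.10.9. The interval functions were tested on simulated data. A peak counted as present with 1 bp of overlap. Where a region met several peaks, the one of best score was used. Distances run between edges unless centres are named. Intervals are 95% Wilson intervals.

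The regions and comparisons were chosen with earlier results of these data known. Sites were named by rule: the best 10 by H2A.Z score, by mean H3K4ox percentile and by the lower of both, the 5 widest, the 5 richest windows of 1 Mb and the 5 nearest the rule's border on each side, of which the text gives part. Transcription starts, CpG content, gene lists and sequences were not analysed here, since no genome or annotation of hg19 was used.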

Additional observations from a re-analysis of the deposited data

How the results depend on the processing

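The comparisons kept their direction under the alternatives run on them (200 bp centres, upper 50% by score, either H3K4ox replicate left out, and, chosen after seeing the data, leaving out regions within 1 Mb of a peak-free stretch of 1 Mb or more or of a chromosome's outermost peaks). The share without RUVBL2 was lower with H2A.Z in each of them: 67.4% against 79.5% with 200 bp at the centres and 38.6% against 59.3% in the upper 50%. RUVBL2 within 5 kb was likewise more frequent than around regions with neither, at 52.3% against 44.6% and 44.5% against 27.9%. The levels moved more. With 200 bp at the centres, the median width was 254 bp by construction, the H3K4ox percentile 55.3, the H2A.Z percentile 48.2 and the distance between centres 80.0 bp. With the upper 50% of each list there were 2294 regions, of 1439 bp, with percentiles of 78.6 for H3K4ox and 77.3 for H2A.Z, 253.5 bp between centres and 44.5% within 5 kb. With no RUVBL2 allowed within 1 kb, they were 1004 bp wide, at the 55.9 H3K4ox percentile, with 133 bp between centres and 41.7% within 5 kb, which that rule itself lowers. With at least 50% of the H2A.Z peak required inside, the H2A.Z percentile was 48.9 and the distance between centres 124 bp. Without the regions near peak-free stretches or ends it was 138 bp. Leaving out each H3K4ox replicate in turn gave 9900 to 10274 regions, widths of 808 to 835 bp, H3K4ox percentiles of 47.2 to 47.5, H2A.Z percentiles of 50.96 to 50.98, 119 to 120 bp between centres and 48.2% to 49.2% within 5 kb. The number of regions was taken as moved only past 1.5 times; short of that it was 4933 with 200 bp at the centres and 9900 without replicate 1, against 6693. Of 42 recomputed values 26 moved, the others being judged by the spread between the H3K4ox libraries or by an interval, and the cause was not tested. No paired analysis was possible because the groups with a peak list share fewer than 2 replicate numbers. Unknown depth and single libraries for H2A.Z and RUVBL2 limit all of these values.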

Other observations

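Of the 4 longest runs of successive H3K4ox regions with H2A.Z and no RUVBL2, the first by position held 4 regions within 7.87 kb on chromosome 1, 228761956 to 228769828. They met 3 H2A.Z peaks with scores of 115.1, 122.6 and 244.3, and their H3K4ox scores lay between 194.5 and 287.0. RUVBL2 lay 81, 2300, 3601 and 1403 bp away. This run was not tested for repeated sequence or for reads placed there from other copies. It can therefore not be taken as 4 separate sites.

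Among the widest regions, some met a wide H2A.Z peak. At chromosome 11, 55020365 to 55027532, a region of 7168 bp met an H2A.Z peak of 10800 bp, and at chromosome 22, 16847897 to 16858051, a region of 10155 bp met one of 4849 bp. Whether these wide sites lie in repeated sequence or stand out in input chromatin was not tested. Within 1 Mb of a peak-free stretch of 1 Mb or more lay 0.90% of the regions with H2A.Z and no RUVBL2, 2.17% of those with both, 2.00% of those with RUVBL2 alone and 0.98% of those with neither.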
